A study of Mus musculus with 9 samples.

Results

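The AIM2-like receptor genes, also called the HIN-200 or PYHIN genes, were followed by symbol: Aim2, Ifi203, Ifi204, Ifi205, Mnda, Mndal, Pydc3, Pydc4 and Pyhin1. All 9 symbols were held by the files, out of 24054 genes listed in both kinds of file. Of 13 further symbols of the same family that were looked up, 3 were held (Ifi202b, AI607873 and BC094916), and their values are given beside those of the members. All libraries came from spleens of C57BL/6 mice of the genotype Clec9a-Cre/Cre Rosa-tdTomato/tdTomato, in which the endogenous Clec9a locus drives Cre and Cre switches on the fluorescent protein TOMATO. TOMATO therefore marks cells with a history of Clec9a expression, which is typical of committed dendritic cell progenitors. Type 2 dendritic cells were sorted as live, single, autofluorescence-negative cells that carried MHCII, CD11c and CD11b. The 3 groups were TOM+ cDC2 from mice at postnatal day 8 (young TOM+ cDC2, n = 3), TOM- DC2 from mice of the same age (young TOM- DC2, n = 3), and TOM+ cDC2 from adult mice (n = 3, of which 1 library was from mice of 9 weeks and the others from mice of 8 weeks). No treatment was given. Cells in which too little Cre was made stay TOM-, whatever their origin. Young spleens were pooled for the sort, and the labels give neither replicate numbers nor the sex of the mice, so p-values measure the spread between these libraries. Replicate numbers below name libraries in order of deposition. In both young groups replicates 1, 2 and 3 carry the numbers 81, 91 and 92 in their deposited names. The young libraries of number 81 deviated together, whereas pairing by 91 and 92 was not clear and adult libraries were linked to none of them.

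AIM2-like receptors are interferon-inducible proteins that combine an amino-terminal pyrin domain, which binds other pyrin domains, with a carboxy-terminal HIN domain, which binds DNA, although some members have only one of these. AIM2 itself senses double-stranded DNA in the cytosol and recruits the adaptor ASC (encoded by Pycard) to activate caspase-1, whereas other members act in the nucleus on transcription and cell growth or signal through STING. The mouse genes arose by repeated local duplication, so that several are close copies of each other and short reads may match more than one of them. In dendritic cells these genes belong to the sensing machinery that is tuned by interferon.

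The 12 genes lie side by side on chromosome 1, in 682.2 kb between positions 173349547 and 174031755 of GRCm38.p6 (the mm10 build). From the proximal end, Aim2 occupies chr1:173349547-173466040 on the plus strand, BC094916 chr1:173521311-173535957 on the minus strand and Pydc4 chr1:173566280-173599348 on the minus strand. Pyhin1 (chr1:173630859-173647928) and Pydc3 (chr1:173673628-173698393) follow on the plus strand. All genes beyond them lie on the minus strand, in the order AI607873 (chr1:173723424-173741831), Ifi204 (chr1:173747293-173767069), Mndal (chr1:173857215-173880382), Mnda (chr1:173896339-173913087), Ifi203 (chr1:173920400-173942866), Ifi202b (chr1:173962569-173982844) and Ifi205 (chr1:174011998-174031755). RefSeq now names Pydc4 as Ifi213, Pyhin1 as Ifi209, Pydc3 as Ifi208, Mnda as Ifi211, AI607873 as Ifi207 and BC094916 as Ifi214, and the symbols of the files are kept here.

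Because these genes are known for their induction by interferon, the windows around their starts (250 bases before to 50 bases after, RefSeq, GRCm38.p6) were searched on both strands for GAAANNGAAA, the core of the interferon-stimulated response element (ISRE) that interferon-activated transcription factors bind. These letters were present in the window of 8 of the 11 genes with an entry (6 of 8 members), against 3.44% of 32851 windows of the same length over all genes. Aim2, Pyhin1 and Ifi202b had no match, and Ifi204 has no entry. The window of Aim2 (chr1:173420354-173420653) lies inside the locus given above, and the proximal end of that locus was not searched. The 40 bases around the match are shown because several of these genes hold near-copies of the same stretch. The matched letters are in capitals, 5′ to 3′ on the strand of the gene.
Pydc4 (chr1:173599321-173599360, match from -73 relative to the start): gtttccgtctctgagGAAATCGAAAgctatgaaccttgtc
Pydc3 (chr1:173673592-173673631, from -58): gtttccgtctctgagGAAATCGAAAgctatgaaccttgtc
BC094916 (chr1:173536012-173536051, from -79): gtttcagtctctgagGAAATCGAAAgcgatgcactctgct
Pyhin1 (chr1:173630765-173630804, no match): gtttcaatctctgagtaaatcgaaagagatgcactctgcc
Ifi203 (chr1:173942503-173942542, from -35 of 1 of its starts): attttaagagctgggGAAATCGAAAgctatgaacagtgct
AI607873 (chr1:173741826-173741865, from -41): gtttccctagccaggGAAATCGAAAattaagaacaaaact
Mnda (chr1:173913059-173913098, from -37): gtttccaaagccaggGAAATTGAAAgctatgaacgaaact
Ifi205 (chr1:174031865-174031904, from -134): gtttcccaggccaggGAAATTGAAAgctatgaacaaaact
The stretches of Pydc4 and Pydc3 were identical over all 40 bases, as were those of Ifi203 and Mndal. Mnda and Ifi205 shared 37 of 40 letters, and AI607873 shared 34 with Ifi205 and 33 with Mnda. BC094916 and Pyhin1 shared 36 of 40, and the stretch of Pyhin1 departs from the motif by 1 letter. BC094916 also shared 33 of 40 with Pydc4 and with Pydc3. A match describes the letters only and is not a measured binding site. The GAS motif (TTCNNNGAA), present in 8.3% of all windows, was found in Ifi202b alone among these genes. The letters AGGAAGT, a core for PU.1 and other ETS factors, are held on either strand by 9.35% of all windows. They occurred on the strand of the gene in Aim2 (-112), AI607873 (-69) and Mnda (-65), and on the opposite strand in Pyhin1 (-45). The composite ETS and IRF element GGAANNGAAA, in 2.72% of all windows, occurred in none of them. The TATA box letters TATAAA, which 13.6% of all windows hold on either strand, occurred far upstream in the 4 neighbours that follow Aim2. They lay on the strand of the gene in Pydc4 (-193) and Pydc3 (-178), and on the opposite strand in BC094916 (-211) and Pyhin1 (-212). Matches past the start occurred in Ifi202b and Ifi205.

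The coding sequences were also alike, and this bears on every value below. The longest identical run was 495 bases between Ifi205 and Mnda, followed by 253 bases between Pyhin1 and BC094916, 223 between Ifi204 and Mnda, 182 between Mndal and both Ifi205 and Mnda, and 149 between Pydc3 and Pydc4. A stretch of 60 bases from the run that Ifi205 (chr1:174017587-174017646), Mnda (chr1:173901973-173902032) and Mndal (chr1:173862814-173862873) hold without a difference, all on the minus strand, shows why a read of 50 bases cannot be assigned there.
Ifi205, Mnda and Mndal: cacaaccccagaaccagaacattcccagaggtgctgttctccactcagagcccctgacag
Over whole transcripts, the share of 50-base windows found at a single position among the annotated transcripts was 98.9% for Aim2 and 89% for Ifi203, but only 50.4% for Ifi205 and 27.1% for Mnda. It was 79.9% for Pydc4, 73.9% for Pydc3, 72.4% for Mndal, 69.8% for Ifi204 and 64.9% for Pyhin1, whose shared windows (34.7%) matched BC094916. Of the windows of Pydc3, 21% were shared with Pydc4 and 10.8% with Ifi206, a further gene of the annotation. Of those of Pydc4, 19.3% were shared with Pydc3 and 4.29% with Ifi206. The part of Ifi206 in the values below was not tested.

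The reads behind these genes were present in both deposited quantifications, which treat shared reads differently. STAR counts leave out reads with several best positions, whereas RSEM divides them among transcripts and gives expected counts and TPM, a level per transcript length that sums to the same total in every library. The STAR count of Aim2 was 101% to 106% of its RSEM expected count over the 9 libraries, whereas that of Mnda was 19.1% to 34.1%, that of Pydc3 28.9% to 46.0% and that of Ifi205 34.9% to 57.9%. Pyhin1 (64.0% to 66.7%), Ifi204 (65.2% to 73.8%), Ifi203 (68.8% to 75.5%), Mndal (71.6% to 75.9%) and Pydc4 (48.4% to 75.6%) lay between. Over 10213 genes with a mean expected count of at least 50 the median share was 102.8%, and 10.52% of them were under 80%, so 8 of the 9 members belonged to the minority of genes that lost reads in the STAR counts. Levels below are the RSEM TPM, tests were made on the STAR counts with edgeR's quasi-likelihood test, and both are given wherever they part.

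**Figure D1:**
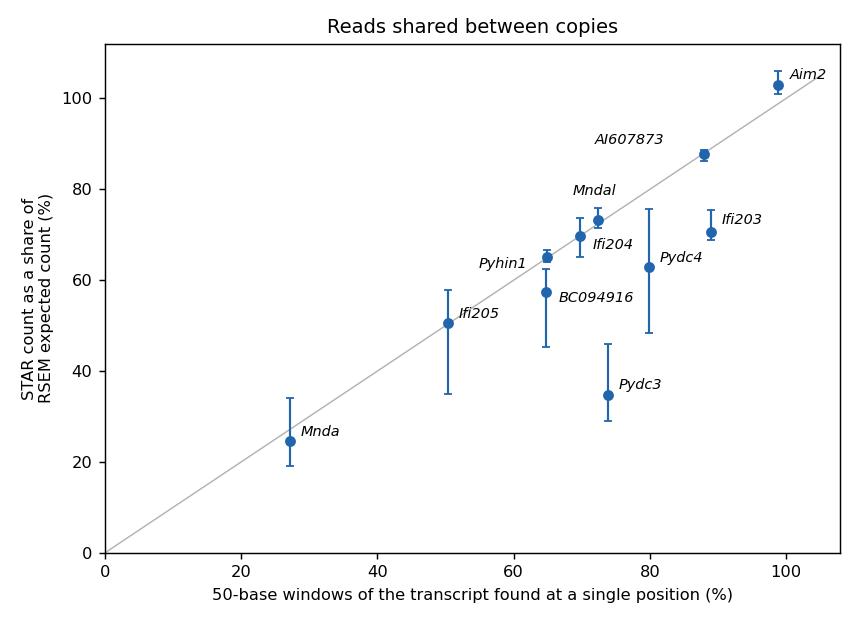
Share of the RSEM expected count that STAR counted (points, mean of 9 libraries; bars, lowest to highest library; percent) against the share of 50-base windows of the transcript found at a single position (percent), for the 11 HIN-200 genes with reads in all libraries. Aim2 sits at the top right and Mnda at the bottom left, with most genes close to the grey line of equal shares and Pydc3, Pydc4 and Ifi203 below it.

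Gene counts totalled 12783252 to 22809401 reads a library, with adult libraries among the shallower ones (12783252 to 16809639). Reads with several best positions, which STAR did not count, made up 12.7% to 13.4% of the reads of young libraries and 10.4% to 10.8% of those of adult ones, and reads on no annotated gene 8.84% to 12.8% and 15.2% to 17.1%. Neither pair of ranges overlapped, and their part in the results below was not tested. The sorted cells carried the markers of their label: none of the 8 cDC2 markers (among them Itgax, Sirpa and Flt3) was under 1 TPM, and their summed level was 18470 to 18773 TPM in young TOM+ cDC2, 17316 to 18425 in young TOM- DC2 and 29360 to 31452 in adults. Most of this sum was H2-Ab1, which encodes a chain of MHCII (mean 16830 TPM in young TOM+ cDC2, 16216 in young TOM- DC2 and 28827 in adults). From young to adult TOM+ cDC2, 5 of these markers rose and 2 fell by adjusted p, namely Sirpa (753 to 470 TPM, log2 fold change -0.56, edgeR adjusted p = 2.5e-04) and Itgam, which encodes CD11b (147 to 77.9 TPM, -0.78, adjusted p = 1.17e-04). Of the markers of other cells, the 7 macrophage markers that were listed summed to 154 to 198 TPM in young TOM+ cDC2, 248 to 303 in young TOM- DC2 and 86.3 to 128 in adults. The 8 monocyte markers summed to 1852 to 2686, 1978 to 3206 and 2103 to 2582 TPM. The 6 B cell markers summed to 61.0 to 70.7, 70.0 to 80.8 and 41.1 to 54.0 TPM, and the 6 cDC1 markers to 47.4 to 53.6, 65.7 to 71.6 and 59.3 to 62.3. The 6 pDC markers summed to 20.7 to 28.0 TPM over all libraries, the 6 ILC3 markers to 4.4 to 7.75 in both TOM+ groups and 25.4 to 34.3 in TOM- DC2, and T and NK cell markers to at most 5.24. Neutrophil markers summed to at most 0.98 TPM except in young TOM- DC2, where they ranged from 0.52 to 16.93. In that group S100a8 and S100a9 were at 0 TPM in the median library and at 7.68 and 5.58 in the highest. Klk1 (pDC) and Il22 (ILC3) were at 0 in all libraries, and Clec9a (cDC1), Cd5l (macrophage), F13a1 (monocyte), Pax5 and Ebf1 (B cell) stayed under 1 TPM. Both copies of Clec9a carry Cre in these mice, which lack its functional protein, so the low level of Clec9a cannot show whether cDC1 were absent. The part of these cells in the results below was not tested. These are bulk libraries, in which fewer cells of a type and less RNA per cell cannot be told apart.

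Together the 12 genes rose from 256 ± 16.3 TPM (SD, n = 3) in young TOM+ cDC2 and 282 ± 19.6 in young TOM- DC2 to 375 ± 13.4 in adult TOM+ cDC2, and the groups of young libraries did not overlap with the adult one. The make-up of this sum differed as well. Mndal was the most abundant transcript in both young groups, with 29.5% ± 2.2 and 33.1% ± 2.2 of the sum, followed by Pyhin1 with 19.5% ± 2.0 and 18.7% ± 0.77. In adults the order was the other way round, with Pyhin1 at 30.5% ± 2.1 and Mndal at 21.0% ± 2.8. Aim2 came next in all groups, although its libraries overlapped with those of AI607873 in young TOM+ cDC2, with those of Ifi203 in young TOM- DC2 and with those of Mndal in adults. Ifi205 ranked sixth in both young groups, overlapping with Ifi204 in TOM- DC2, and last of the 9 members in adults, where it took 0.567% ± 0.31 of the sum against 5.74% ± 1.5 in young TOM+ cDC2. Pydc4 and Pydc3 had the lowest means of the 9 members in both young groups, overlapping with each other and, in TOM- DC2, Pydc3 also with Mnda, and in adults lay in a range in which Pydc4, Pydc3, Ifi204 and Mnda each overlapped with the next.

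**Figure D2:**
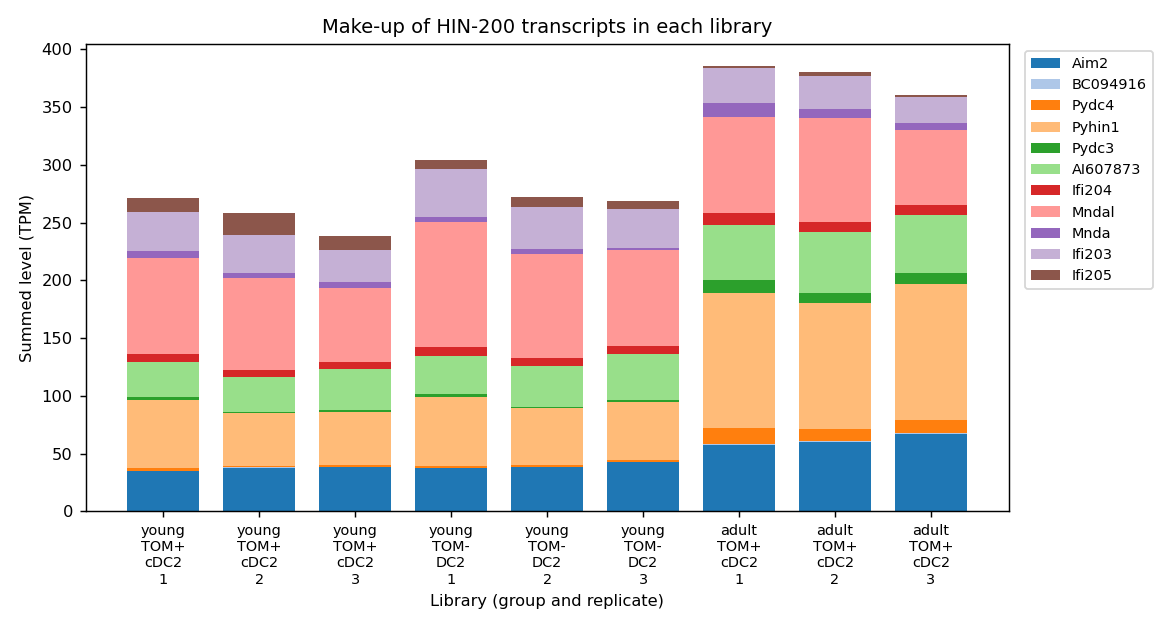
Summed level (TPM) of the HIN-200 genes in each of the 9 libraries, stacked by gene in the order along the chromosome. The adult libraries reach 360 to 385 TPM and the young ones 239 to 305, and the segment of Pyhin1 widens in adults while that of Ifi205 narrows.

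The first comparison asked which of these genes differ with age among cells of the same Clec9a history, adult against young TOM+ cDC2. A gene was called when its log2 fold change was above 1 or below -1 and its adjusted p (Benjamini-Hochberg) was under 0.05, and is described as having risen or fallen when the adjusted p alone was under 0.05. All 9 members passed the filter of an average count of at least 1. Of them, 5 were called, 4 higher (Pydc4, Pydc3, Pyhin1 and Mnda) and 1 lower (Ifi205) in adults, while 12.8% of the 14452 genes tested were called (6.86% higher, 5.96% lower). By adjusted p alone 6 members rose and 1 fell, where 40.6% of all genes passed. In CPM (STAR counts scaled to library size by TMM), the adult libraries of 7 members lay apart from the young TOM+ ones, 6 higher and 1 lower, as did those of 51.1% of all genes. The median log2 fold change of the members was 0.90, and that of all genes -0.05.

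**Figure D3:**
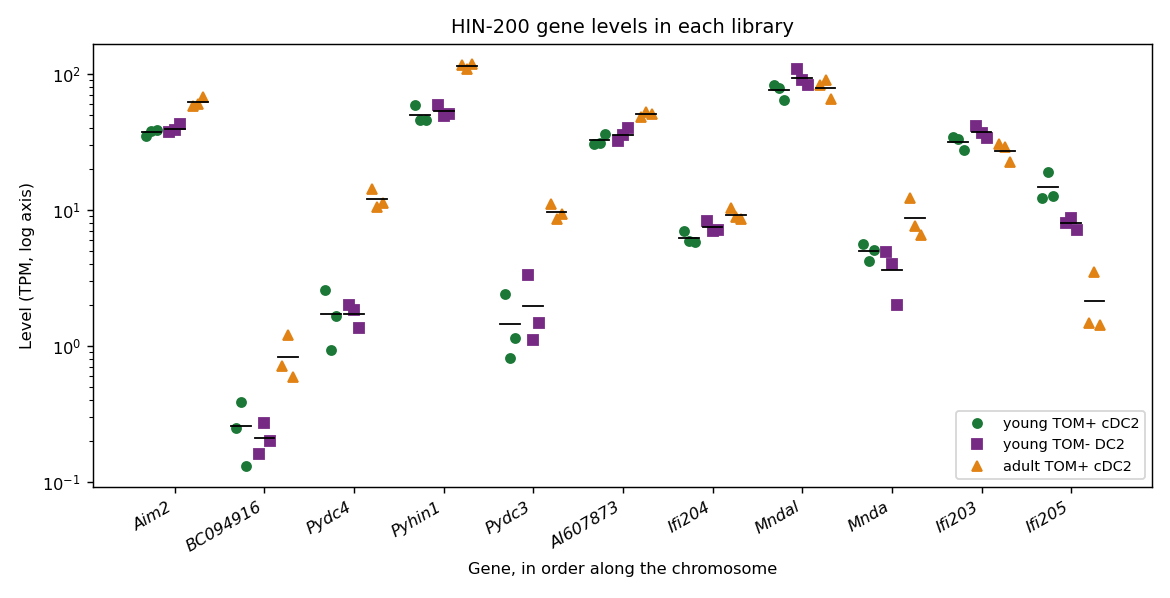
Level (TPM, log axis) of each HIN-200 gene in every library, with genes in their order along the chromosome, symbols for the 3 groups and a black line at the mean of each group. Adult libraries of Pydc4, Pydc3, Pyhin1 and Aim2 lie above all young ones, those of Ifi205 below all young ones, and those of Mndal overlap with both young groups.

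Pydc4, named for its pyrin domain, had the largest log2 fold change of the 9 members. Its level was 2.56, 0.94 and 1.65 TPM in young TOM+ cDC2, 1.99, 1.83 and 1.35 TPM in young TOM- DC2 and 14.33, 10.48 and 11.31 TPM in adults, on 12 to 49, 26 to 34 and 139 to 184 STAR counts. The lowest adult library was more than any young library by a wide margin. The log2 fold change from young to adult TOM+ cDC2 was 3.06 ± 0.33 (SE; 95% interval 2.34 to 3.78; 8.33-fold; edgeR's quasi-likelihood adjusted p = 1.86e-05), and 2.96 ± 0.27 on RSEM counts.

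Pydc3 shares a coding run of 149 bases and its 40-base upstream stretch with Pydc4. Its level was 2.40, 0.82 and 1.15 TPM in young TOM+ cDC2 and 3.30, 1.11 and 1.48 TPM in young TOM- DC2. Adults had 11.04, 8.56 and 9.31 TPM. Replicate 1 was the highest library in each of the young groups, and both of these libraries carry the number 81 in their deposited names. Adults remained above all young libraries. The log2 fold change was 2.45 ± 0.47 (95% interval 1.42 to 3.49; edgeR adjusted p = 0.00135), 2.89 ± 0.37 on RSEM counts, and 3.23 ± 0.34 without the libraries of number 81, where that of Pydc4 was 3.56 ± 0.33.

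Pyhin1, which encodes a protein with both pyrin and HIN domains, had the largest difference in TPM of the 9 members. It was measured at 58.51, 45.63 and 46.01 TPM in young TOM+ cDC2, 59.24, 48.85 and 50.52 TPM in young TOM- DC2 and 116.38, 109.06 and 117.83 TPM in adults. All adult libraries were far above the young ones, with 1008 or more STAR counts in each library. The log2 fold change was 1.35 ± 0.094 (95% interval 1.15 to 1.55; 2.55-fold; edgeR adjusted p = 8.81e-07), and 1.35 ± 0.091 on RSEM counts. BC094916, the copy with which Pyhin1 shares coding and upstream sequence, was near the limit of detection, with 1 to 3 counts in each young library and 4 to 5 in each adult one. It stood at 0.13 to 0.39 TPM in young TOM+ cDC2, 0.16 to 0.27 in young TOM- DC2 and 0.59 to 1.2 in adults, and its difference did not pass on STAR counts (edgeR adjusted p = 0.093) but did on RSEM counts (adjusted p = 0.032). Pydc4, Pyhin1 and Pydc3 are neighbours on the chromosome.

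Aim2, the cytosolic DNA sensor, stood at 34.98, 37.89 and 38.73 TPM in young TOM+ cDC2, 37.27, 38.52 and 42.97 TPM in young TOM- DC2 and 57.51, 60.08 and 66.98 TPM in adults. It rose by less than the call threshold but with little spread, by a log2 fold change of 0.90 ± 0.098 (95% interval 0.69 to 1.12; 1.87-fold; edgeR adjusted p = 1.94e-05). The value on RSEM counts was 0.88 ± 0.10. AI607873 behaved alike in size, with 30.42, 31.14 and 35.83 TPM in young TOM+ cDC2 and 48.18, 52.44 and 50.47 TPM in adults (log2 fold change 0.75 ± 0.12, edgeR adjusted p = 2.73e-04).

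Ifi204, which encodes p204, a DNA-binding protein that has been linked to STING signalling and to control of cell growth, was expressed at a low level of 6.98, 5.86 and 5.83 TPM in young TOM+ cDC2 and 8.28, 6.98 and 7.09 TPM in young TOM- DC2. Adults had 10.37, 8.82 and 8.51 TPM, above all young libraries. The rise of 0.80 ± 0.16 on the log2 scale (edgeR adjusted p = 0.00141) was 0.73 ± 0.13 on RSEM counts.

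Mnda, the mouse gene named after the human myeloid cell nuclear differentiation antigen, had 5.57, 4.24 and 5.07 TPM in young TOM+ cDC2, 4.88, 4.0 and 1.99 TPM in young TOM- DC2 and 12.18, 7.64 and 6.48 TPM in adults. Adult libraries were higher than young ones, but the highest by a good margin was adult replicate 1. The log2 fold change of 1.14 ± 0.38 (95% interval 0.31 to 1.97; edgeR adjusted p = 0.0306) rested on 13 to 24 and 19 to 38 STAR counts, since 27.1% of its windows are its own. The call was lost on RSEM counts, where the log2 fold change was 0.98 ± 0.30 (adjusted p = 0.0228). Its adjusted p was 0.156 without adult replicate 1, 0.101 without young TOM+ replicate 2 and 0.0654 without young TOM+ replicate 3.

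Mndal and Ifi203, neighbours on either side of Mnda that share a 40-base upstream stretch, did not pass the test. Mndal was measured at 83.39, 79.25 and 64.28 TPM in young TOM+ cDC2, 107.69, 90.08 and 83.15 TPM in young TOM- DC2 and 82.84, 89.95 and 64.93 TPM in adults, with overlapping groups. Its log2 fold change was 0.17 ± 0.14 (95% interval -0.13 to 0.48; edgeR adjusted p = 0.351), an interval that stays within 1 on the log2 scale in both directions. Ifi203 had 34.04, 32.94 and 27.40 TPM in young TOM+ cDC2, 41.58, 37.01 and 33.52 TPM in young TOM- DC2 and 30.39, 28.97 and 22.34 TPM in adults. Its log2 fold change was -0.003 ± 0.12 (95% interval -0.27 to 0.26; edgeR adjusted p = 0.989).

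Ifi205 was the only member that fell. It encodes p205, a nuclear HIN-200 protein that has been described in macrophages as a regulator of Pycard. It was present at 12.15, 19.12 and 12.73 TPM in young TOM+ cDC2, at 7.95, 8.73 and 7.16 TPM in young TOM- DC2 and at 1.47, 3.51 and 1.43 TPM in adults. None of the 3 groups overlapped, with adult replicate 2 the highest of its group. The STAR counts were 122, 147 and 117, then 55, 62 and 83, and then 6, 22 and 12. It fell by 2.70 on the log2 scale from young to adult TOM+ cDC2 (SE 0.35; 95% interval -3.47 to -1.94; 6.52-fold lower; edgeR adjusted p = 7.82e-05). The log2 fold change was -2.65 on RSEM counts and -3.37 without adult replicate 2. Of its windows, 49.5% are shared with Mnda, which rose in the same comparison, and the direction of each gene was the same in STAR counts, which hold unshared reads only, and in RSEM counts. Read against the upstream letters, genes that hold the ISRE core included members that rose (Pydc4, Pydc3 and Mnda) and the one that fell (Ifi205). They also included those that did not pass (Mndal and Ifi203), whereas Aim2 and Pyhin1 rose without a match in the windows searched.

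**Figure D4:**
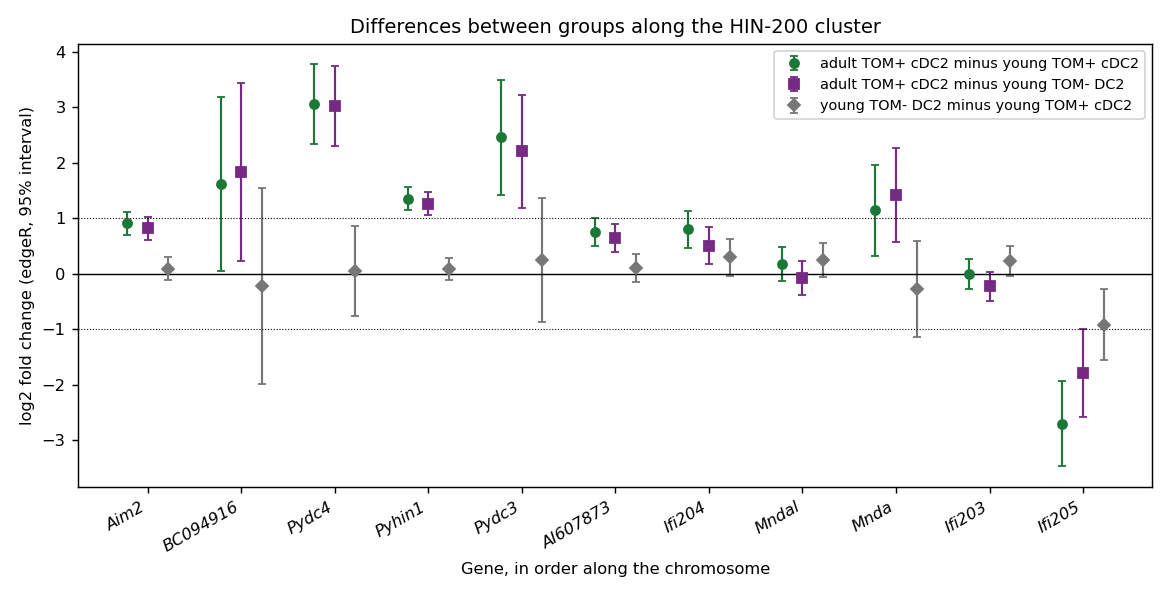
Log2 fold change from edgeR's quasi-likelihood fit (points) with its 95% interval (bars) for each HIN-200 gene in the order along the chromosome, for the 3 comparisons; dotted lines mark log2 fold changes of 1 and -1. Pydc4, Pyhin1 and Pydc3 lie above 1 in both comparisons with adults, Ifi205 lies below -1 in both, and for every gene the interval between the young groups includes 0 except for Ifi205.

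The second comparison set the adult TOM+ cDC2 against young TOM- DC2, cells of the same surface phenotype without a record of Clec9a expression. It uses the same adult libraries as the first, and the comparisons are therefore not independent. Here too 5 of 9 members were called, 4 higher and 1 lower, against 11.3% of all genes (4.78% higher, 6.5% lower), and 6 rose and 1 fell by adjusted p alone, against 36.3% of all genes. In CPM, 7 members lay apart, as did 47.6% of all genes. The median log2 fold change was 0.81 for the members and -0.07 for all genes. Pydc4 rose by 3.01 ± 0.33 on the log2 scale (edgeR adjusted p = 2.81e-05) and Pydc3 by 2.21 ± 0.47 (edgeR adjusted p = 0.00295). Pyhin1 rose by 1.26 ± 0.094 (edgeR adjusted p = 1.90e-06). Mnda rose by 1.42 ± 0.39 (edgeR adjusted p = 0.0133, but 0.0724 without adult replicate 1 and 0.0535 without young TOM- replicate 3).

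Aim2 (0.81 ± 0.098, edgeR adjusted p = 5.21e-05) and Ifi204 (0.50 ± 0.15, adjusted p = 0.0226) rose by less than the threshold of a call. Ifi205 fell by 1.78 on the log2 scale (95% interval -2.58 to -0.99; 3.45-fold lower; edgeR adjusted p = 0.00227), and the value was -2.45 without adult replicate 2. Mndal (-0.08 ± 0.14, edgeR adjusted p = 0.692) and Ifi203 (-0.23 ± 0.12, adjusted p = 0.159) did not pass. In TPM, the adult libraries of Ifi203 lay below all those of young TOM- DC2, whereas in CPM the groups overlapped.

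The third comparison asked whether the genes differ with Clec9a history at the same age, young TOM- DC2 against young TOM+ cDC2. No member was called (0 of 9), where 1.18% of all genes were (1.16% higher and 0.0208% lower in TOM- DC2) and 1.6% passed by adjusted p alone. At an unadjusted p under 0.05 by edgeR there was 1 member, Ifi205, where 1355 of the 14452 genes tested were. DESeq2 and limma also called 0 members. Ifi205 was lower in all 3 TOM- libraries than in all 3 TOM+ libraries, by 0.92 on the log2 scale (fitted value -0.92 ± 0.29; 95% interval -1.56 to -0.28; edgeR adjusted p = 0.221). With the number of the deposited name as a replicate block the value was -0.91 and the adjusted p 0.0322, and with the block among young libraries only -0.90 and 0.108. In CPM, 3 members (Ifi203, Ifi204 and Mndal) were higher in every TOM- library than in every TOM+ library and 1 (Ifi205) was lower, where 9.26% and 7.36% of all genes were (16.6% in all). In TPM only Ifi205 kept its groups apart. The intervals of the difference were narrow for Aim2 (-0.12 to 0.30 on the log2 scale) and Pyhin1 (-0.12 to 0.29), and wide for Pydc3 (-0.87 to 1.37), Pydc4 (-0.76 to 0.85) and Mnda (-1.15 to 0.59), for which differences inside these limits could not be told from the spread of these libraries.

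Ifi202b, whose protein has HIN domains but no pyrin domain and can hold AIM2 in check, is known to be little expressed in the C57BL/6 strain. It had 0 counts in 8 libraries and 2 counts (0.12 TPM) in young TOM- replicate 2, although all of its windows were found at a single position. The floor of 3 counts per library was not reached in any library.

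Genes that act with or upstream of these receptors were read from lists that the cluster does not overlap with. Of 20 reference interferon-stimulated genes, 17 were called higher in adult than in young TOM+ cDC2 and all 20 rose by adjusted p, where 6.86% and 19.5% of all genes did, with a median log2 fold change of 1.61. Among them Ifi44 went from 0.13 to 2.61 TPM (log2 fold change 4.58), the antiviral nucleotide synthetase Oas2 from 4.34 to 30.2 TPM (2.93) and Oas3 from 3.0 to 16.4 TPM (2.60), with edgeR adjusted p at or below 6.8e-05. Against young TOM- DC2, 14 were called higher (4.78% of all genes). Between the young groups 0 of 20 were called by edgeR, with none at an adjusted p under 0.05, which 1.6% of all genes reached. Their median log2 fold change, TOM- DC2 minus TOM+ cDC2, was 0.255, against -0.00128 for all genes. In CPM, 4 of the 20 were higher in every TOM- library than in every TOM+ library and 0 were lower. The shares of all genes were 9.26% and 7.36%. In adult against young TOM+ cDC2 the log2 fold changes of Pydc4, Pydc3, Pyhin1 and Mnda lay within the range of this list and those of Aim2 and Ifi204 near its lower end, where Mx1 stood at 0.29 and Cmpk2 at 0.80. Those of Mndal (0.17), Ifi203 (-0.003) and Ifi205 (-2.70) lay below all genes of the list.

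Of 14 genes of interferon reception, 3 were called higher in adult than in young TOM+ cDC2, where 6.86% of all genes were. Among them were Usp18 (36.8 to 149 TPM, log2 fold change 2.13), which encodes a brake on interferon receptor signalling, and Irf8 (23.6 to 47.2 TPM, 1.10). Irf8 is also on the list of cDC1 markers and was higher in young TOM- DC2 than in young TOM+ cDC2 (log2 fold change 0.77, edgeR adjusted p = 0.00275). By adjusted p 9 rose and 1 fell, the kinase gene Tyk2 (73.3 to 48.8 TPM, -0.44), where 19.5% of all genes rose and 21.0% fell. Of the receptor genes, those for interferon-gamma rose, Ifngr1 from 482 to 749 TPM (log2 fold change 0.76, edgeR adjusted p = 2.86e-05) and Ifngr2 from 205 to 260 TPM (0.47, adjusted p = 0.004). Of those for type I interferon, Ifnar1 rose by 0.22 (edgeR adjusted p = 0.0451) and Ifnar2 did not pass (0.005, adjusted p = 0.979).

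Of 13 listed genes of cytosolic DNA sensing, 3 were called higher (Zbp1, 28.4 to 92.1 TPM, Irf7, 44.4 to 170 TPM, and Samhd1, 136 to 247 TPM), against the same 6.86% of all genes. By adjusted p 7 rose and 2 fell, against the same 19.5% and 21.0% of all genes. Those that fell were Mb21d1, which encodes cGAS, the other main cytosolic DNA sensor (17.4 to 8.26 TPM, log2 fold change -0.95, edgeR adjusted p = 2.3e-05), and Ripk3 (57.0 to 36.1 TPM, -0.54). Tmem173, which encodes STING, rose by 0.26 (edgeR adjusted p = 0.0191). The level of the sensor gene Aim2 was thus higher, and that of Mb21d1 lower, in adult than in young TOM+ cDC2.

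Of 12 inflammasome partners, 2 were called higher (Mefv, 52.8 to 153 TPM, log2 fold change 1.67, and Il1b, 3047 to 6309 TPM, 1.17), 5 rose and 3 fell by adjusted p. The 2 of 12 called are a share near the 12.8% of all genes called, and 40.6% of all genes passed by adjusted p. Pycard, the adaptor of AIM2, fell by 0.68 on the log2 scale, from 88.1 to 50.7 TPM (edgeR adjusted p = 1.21e-04), and its log2 fold change against young TOM- DC2 was -0.68. Casp1 stood at 88.0 and 93.3 TPM (log2 fold change 0.21, edgeR adjusted p = 0.128) and Gsdmd at 148 and 154 TPM (0.21, adjusted p = 0.0829). Between the young groups, none of the 25 genes of these DNA sensing and inflammasome lists passed the adjusted p by edgeR, where 1.6% of all genes did.

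**Figure D5:**
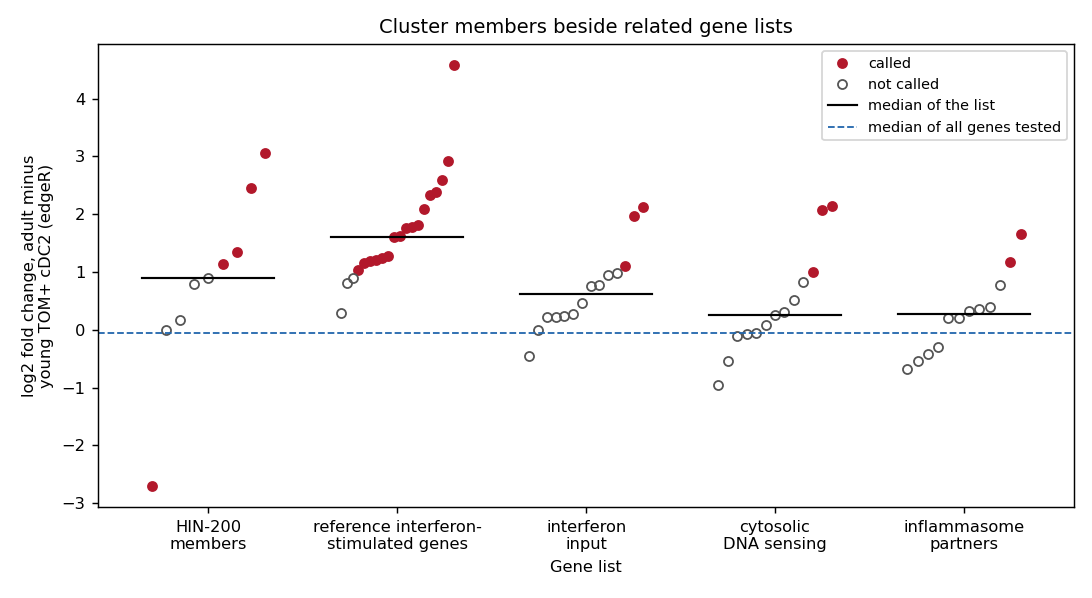
Log2 fold change of adult minus young TOM+ cDC2 (edgeR) for the 9 HIN-200 members and 4 lists of related genes; filled points were called, open points were not, black lines are the medians of each list and the dashed blue line is the median of all genes tested (-0.05). The member at the bottom is Ifi205 (-2.70), and no gene of the other lists was called lower.

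The genes whose levels over the 9 libraries were most like those of each member were taken from 9084 genes with a mean of at least 5 TPM, by Pearson's r of log2(TPM + 1), as a description only. The libraries form 3 groups, so a high r mostly records a like difference between groups. Pyhin1 was most like Dnase1l3 (r = 0.997), a secreted DNase of dendritic cells and macrophages, and Gdap10 (0.997). Pydc4 was most like Gngt2 (0.990) and 1300002K09Rik (0.988), Aim2 like Herpud1 (0.994) and Ifi205 like Lsm2 (0.990) and Naaa (0.990). Among the 3 most like genes of each of the 8 members above this level there was no other of the 8. Between pairs of the 8, r was highest for Pydc4 with Pyhin1 (0.986) and lowest for Ifi205 with Pyhin1 (-0.930). Pydc3, whose mean was under 5 TPM, was left out of this search, also as a match.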

How the data were processed

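RNA was extracted from sorted cells and converted into cDNA by the SMART-seq v4 kit, which does not mark strand, and single-end reads of 50 bases were obtained. The authors aligned reads to mm10 with STAR and deposited STAR counts per gene, which are not normalized, and RSEM expected counts and TPM. Versions of STAR and RSEM are not given in the sources used here. STAR's lines for reads not assigned to a gene (unmapped, multimapping, on no feature or ambiguous; 26.1% to 31.6% of reads) were left out. The unstranded counts were used, since each stranded column held about equally many reads (50.4% to 50.7%), so overlapping and antisense genes cannot be separated.

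Members and lists were chosen with earlier results of these data known. All 9 members, each further HIN-200 symbol held, and from other lists the called genes or the 4 with the largest change were eligible to be named. The values of 1 listed gene are not reported here. Counts of all 9 libraries in 3 groups were tested with edgeR 4.0.16 (R 4.3.3; quasi-likelihood, TMM, average count of at least 1). DESeq2 1.42.0 with apeglm 1.24.0 and limma 3.58.1 on log2(TPM + 1) served as alternatives, with RSEM expected counts rounded to whole numbers. On simulated data (adult minus young TOM+ cDC2, 14245 genes, 200 changed by a log2 fold of 2) edgeR recovered 98% with 2 false calls. No libraries of a group were copies (lowest chi-square per gene 8.743). The deposited names carry the numbers 81, 91 and 92 in both young groups and 91, 92 and 95 in adults. Deviations from the group means correlated between young libraries of the same number with r = 0.5 (81), 0.179 (91) and 0.33 (92). Between young libraries of different numbers r was -0.409 to 0.185, the highest being TOM+ 92 with TOM- 91. The pair of number 81 thus stood apart, whereas pairing by 91 and 92 was not clear. No number linked young and adult libraries (r of 0.041 or less). Intervals and the floor of 3 counts per library cover the spread of these libraries or counting error only.

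Genes were placed with RefSeq on GRCm38.p6, and shared windows were searched in GENCODE M21 transcripts. Sequences are RefSeq promoter windows and GENCODE transcripts. The FPKM column was not used.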

Additional observations from a re-analysis of the deposited data

How the results depend on the processing

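Over 21 alternatives, the number of members called stayed at 4 or 5 of 9 in both comparisons with adults (4 to 5 when each library was left out in turn) and at 0 between the young groups. Ifi205, Pydc3, Pydc4 and Pyhin1 kept their calls and directions in both comparisons with adults under all 21. Mnda lost its call against young TOM+ cDC2 under apeglm shrinkage (0.89), on RSEM counts (0.98), with limma on log2(TPM + 1) (0.68) and on log2(TPM + 0.1) (0.77), and without single libraries (0.77 to 1.31). Aim2 kept an adjusted p under 0.05 throughout. Ifi204 did so against young TOM+ cDC2, but against young TOM- DC2 its adjusted p rose to at most 0.0974 under 5 alternatives. Ifi203 passed at adjusted p = 0.0269 against young TOM- DC2 with limma on log2(TPM + 1) and at 0.0323 on log2(TPM + 0.1), and on the former scale the median of all genes was -0.18.

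The sign changed only for differences that did not pass. For Ifi203 in adult against young TOM+ cDC2 it was 0.021 with DESeq2, 0.020 with apeglm, 0.021 with median-ratio factors, 0.025 with edgeR's own filter, 0.16 with the replicate block, 0.038 without both libraries of number 81 (chosen after seeing the data), and -0.074 to 0.13 without single libraries. For Mndal against young TOM- DC2 it was 0.13 with the replicate block and -0.21 to 0.068 without single libraries. Between the young groups it was -0.048 for Pydc4 on RSEM counts and, without single libraries, -0.27 to 0.53 for Pydc4, -0.37 to 1.00 for Pydc3 and -0.56 to 0.26 for BC094916. The causes were not tested. BC094916 became called on RSEM counts (1.88 and 2.16).

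The replicate block called 274 of all genes between the young groups, against 170 without it, and changed no call of a member, although Mndal then passed by adjusted p alone against young TOM+ cDC2 (0.39, adjusted p = 0.00344). With limma on log2(TPM + 1) 90 genes were called there. Depth limits BC094916 and Ifi202b (at most 5 counts) and Mnda (at most 38).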
